A study of Arabidopsis thaliana with 12 samples.

Results

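MUTEv5#5, an Arabidopsis thaliana line that makes the MUTE protein with the substitution R10W, was compared with the line MUTE, which makes the wild-type protein. The comparison holds the 3 libraries of MUTEv5#5 and the 3 of MUTE, 6 of 12 libraries in the series, and 22636 tested genes of 23071 in the table. Both lines carry the mute-3 mutation at the native locus, and in both the transgene is driven by the MUTE promoter, so mute-3 is shared by the controls. Residues are numbered from the first methionine, and R10W places tryptophan at the arginine of position 10. In the submitters' description the lineages of MUTEv5#5 arrest severely, whereas MUTEv5#2, a second line with the same protein, shows moderately clustered stomata. MUTEPPP#3 makes a protein with H3P, E7P and R11P and enters only the estimate of the spread and values set side by side. Each library was made from 50 whole seedlings pooled at 2 days post-germination, grown at 21 °C in days of 16 h light and 8 h dark on MS with 1% sucrose, with no further treatment. Each allele is read here from 1 line (2 for R10W), so that the effect of an allele and that of a line or its insertion site cannot be told apart.

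Stomata form from epidermal cells through 3 related bHLH transcription factors that act in turn: SPEECHLESS (SPCH) starts the lineage with asymmetric divisions, MUTE ends them and makes a guard mother cell, and FAMA ends the division of that cell and drives guard cell formation. Each pairs with SCREAM (SCRM) or SCRM2. The basic region at the start of a bHLH domain contacts DNA, and R10W lies at the start of the MUTE protein. The reference coding sequence begins with the 16 codons below (TAIR10.1, chr3:1846531-1846578, plus strand, from RefSeq), shown to place the change, with the arginine codon 10 in capitals.

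MUTE: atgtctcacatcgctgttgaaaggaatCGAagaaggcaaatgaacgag

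Libraries held 117868477 to 152600239 counts. Values are given as CPM, counts scaled to TMM-normalised library size, and fold changes as log2 of MUTEv5#5 over MUTE. Markers of the tissues of a whole seedling were present in all 6 libraries: the antenna protein gene LHCB3 at 5362 to 7526 CPM, the epidermal factor gene ATML1 at 119 to 165 CPM, and the root endodermis gene CASP1 at 27.6 to 39.4 CPM. The seed storage gene CRU1 was at most 0.265 CPM. Libraries did not sort cleanly by line. MUTE replicate 1 correlated at a Pearson r of 0.986 across genes with MUTEv5#5 replicate 1, and at 0.978 and 0.973 with the other MUTE libraries. Results are therefore given with and without single libraries. The share of counts from organelle and ribosomal RNA genes was 0.397% in MUTE replicate 3 and 1.01% to 1.53% in the other 5. In such bulk samples, fewer cells of a type and less RNA per cell cannot be told apart.

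MUTE itself was the gene under test. Its transcript (AT3G06120, chromosome 3, 1846442 to 1848259) stood at 6.10, 5.00 and 4.85 CPM in MUTE and at 24.5, 14.4 and 16.8 CPM in MUTEv5#5. All 3 MUTEv5#5 libraries lay above all 3 MUTE libraries. MUTE rose by 1.81 on the log2 scale (edgeR, SE 0.222, adjusted p = 0.00403), and by 1.55 to 1.95 in every alternative, the leaving out of each of the 12 libraries included. It missed the threshold only with the compared groups alone in the fit (adjusted p = 0.056). Reads of the transgene and of the native locus are counted together here.

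At an adjusted p under 0.05, 235 genes (1.04% of those tested) differed between MUTEv5#5 and MUTE. Of these, 71 rose (0.314%) and 164 fell (0.725%), 34 and 71 of them by at least 2-fold. The groups did not overlap for any of the 235, as for 20.6% of all genes tested (10.2% higher and 10.5% lower in MUTEv5#5). The median log2 fold change over all genes was -0.01, and at an unadjusted p under 0.05 there were 3673 genes (16.2%). The lists described here held 30 of the called genes, and 205 lay outside them. The count was set by single libraries: it was 120, 60 and 62 without MUTE replicates 1, 2 and 3, 101, 151 and 59 without MUTEv5#5 replicates 1, 2 and 3, 124 and 118 without MUTEv5#2 replicates 1 and 2, and 128 and 156 without MUTEPPP#3 replicates 2 and 3. The libraries outside the comparison act through the shared estimate of the spread. All 235 genes kept their direction in each of the 12 fits. Of 63 called genes named by rule, 28 stayed called in every one. Losses are given below beside most of the genes described.

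**Figure D1:**
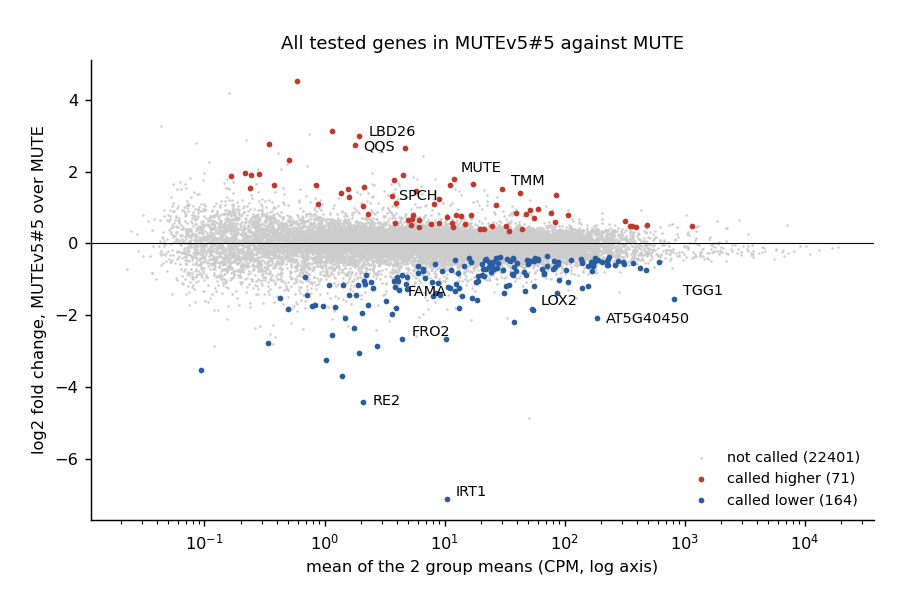
Log2 fold change of MUTEv5#5 over MUTE (vertical axis) against the mean of the group means in CPM (horizontal, log axis) for 22636 genes; the 71 genes called higher and the 164 called lower are coloured. IRT1 has the lowest fold change among the labelled genes (-7.14), and most called genes lie far closer to 0.

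Genes that act before MUTE in the lineage rose. Of 16 genes of the early stomatal lineage, 7 rose and 1 fell, with a median of 0.60. SPCH went from 6.33, 4.39 and 5.52 CPM to 19.3, 16.4 and 14.6, and POLAR, a polarity protein of asymmetric divisions, from 5.14, 4.92 and 5.65 CPM to 11.5, 11.1 and 10.8. The groups were apart for both. SPCH rose by 1.63 (SE 0.16, adjusted p = 0.000803) and POLAR by 1.09 (SE 0.12, adjusted p = 0.00189). SCRM, the partner of all 3 factors, rose by 0.61 (adjusted p = 0.00355), from 65.5 ± 3.43 to 99.7 ± 5.58 CPM (SD, n = 3), whereas its paralogue SCRM2 overlapped between the groups (0.18, adjusted p = 0.691).

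The called members span ligand, receptor and polarity roles. EPF2, a peptide ligand that restrains new lineages, rose by 1.91, TMM, a receptor-like protein that binds such peptides, by 1.53, and BASL, a polarity protein, by 1.48. The receptor kinase gene ERL1 had 9.0, 7.21 and 7.6 CPM in MUTE and 12.7, 13.01 and 13.8 CPM in MUTEv5#5, with no overlap. ERL1 rose by 0.73 (adjusted p = 0.041), a call lost without MUTEPPP#3 replicate 2 or 3, any MUTEv5#5 library, MUTE replicate 2 or 3 or MUTEv5#2 replicate 2, where it stayed positive. Its relatives ERL2 (0.24, adjusted p = 0.252) and AT2G26330 (-0.24, adjusted p = 0.371) did not pass. AT1G71866, annotated as an EPIDERMAL PATTERNING FACTOR-like protein and on none of the lists, went from 0.726, 0.983 and 0.723 CPM to 2.81, 1.86 and 2.28. All 3 MUTEv5#5 libraries were higher. The rise was 1.51 (adjusted p = 0.0341), and the call was lost without MUTEPPP#3 replicate 2, any MUTE library, MUTEv5#2 replicate 1 or 2, or MUTEv5#5 replicate 1 or 3. AT1G71866 overlaps AT1G71865 on the opposite strand. In all, 47 of 183 genes checked overlap a gene on the other strand, also AT1G22690, SLAC1, POLAR, ERL1, BHLH38, AT2G30766, AT5G40450, AT5G60390, CIP1, DXR and CLPR1. Since no source used here gives the strand setting of the counting, reads of such partners may be joined.

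SDD1, a subtilisin-like protease that restricts stomatal number, ran the other way on the early list. It stood at 17.2, 23.4 and 21.4 CPM in MUTE and at 5.27, 6.17 and 6.45 CPM in MUTEv5#5, well apart. SDD1 fell (log2 fold change -1.80, SE 0.149, adjusted p = 0.000388).

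Several genes outside the stomatal lists rose as firmly. LBD26, a LOB-domain transcription factor gene, stood at 0.363, 0.373 and 0.567 CPM in MUTE and at 3.97, 3.06 and 3.35 CPM in MUTEv5#5. The lowest MUTEv5#5 library was far above the highest MUTE library. At 3.00 (log2 fold change; SE 0.204, adjusted p = 0.000123) it was the second largest rise among called genes of at least 1 CPM without overlap. The largest was that of AT1G43590, annotated as a pseudogene, at 0.272, 0.172 and 0.256 CPM against 2.29, 1.90 and 2.03 CPM (3.15, adjusted p = 0.000267). EMS1, chosen after its values were seen, codes for a receptor kinase needed for anther cell fate, and went from 5.38 ± 0.333 to 12.7 ± 1.13 CPM (SD, n = 3). EMS1 rose by 1.24 (adjusted p = 0.000548). The calls of these 3 genes held without any single library.

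FAMA was the 1 called gene of 9 on the guard mother cell list, whose median was 0.15. FAMA stood at 19.98, 23.0 and 18.9 CPM in MUTE and at 9.26, 6.64 and 6.36 CPM in MUTEv5#5, with no overlap. FAMA fell (log2 fold change -1.48, SE 0.137, adjusted p = 0.000548). Of its cell cycle genes, CYCA2;3 had a fold change of 0.29 (adjusted p = 0.124; adjusted p = 0.0296 with DESeq2), CDKB1;2 0.32, CDKB1;1 0.15 and CYCD5;1 0.10. CYCD7;1 was at 0.59 (adjusted p = 0.672) and the cell cycle inhibitor SMR4 at 0.59 (adjusted p = 0.413), and both overlapped between the groups. FLP and MYB88, the MYB factors that stop guard mother cell division, were at -0.33 and -0.25, and none of these passed the edgeR test.

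Guard cell genes fell, in roles from transcription to transport. Of 24 genes of guard cell function, 11 fell and 0 rose, with a median of -0.74. The number of falls was 6 without MUTE replicate 2 or without MUTEv5#5 replicate 3, and 8 to 11 without any other library. It was 3 with the compared groups alone in the fit and 6 with these and the replicate block. Their summed level was 2642 to 2863 CPM in the MUTE libraries and 1485 to 1775 CPM in those of MUTEv5#5, most of it from the myrosinase TGG1. AT1G22690, a gibberellin-regulated family gene used as a guard cell marker, had the smallest p on the list. It stood at 63.9, 66.1 and 54.9 CPM in MUTE and at 13.4, 15.2 and 12.3 CPM in MUTEv5#5. All 3 MUTE libraries were far above. AT1G22690 fell (log2 fold change -2.18, SE 0.144, adjusted p = 0.000123).

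Of the genes of ion transport, SLAC1, an anion channel that closes stomata, fell (log2 fold change -1.44, adjusted p = 0.00106; adjusted p = 0.0558 with the compared groups alone and the replicate block), and ALMT12, a malate-activated anion channel, by 1.46 (adjusted p = 0.00272). CHX20, a cation and proton exchanger of guard cells, went from 10.7, 14.1 and 11.5 CPM to 6.23, 6.48 and 4.26. It was lower in each MUTEv5#5 library and fell by 1.1 (adjusted p = 0.0253), a call lost on leaving out any 1 of MUTE replicates 2 and 3 and MUTEv5#5 replicates 1 and 3 (-1.21 to -0.93). SLAH1, a homologue of SLAC1 chosen after its values were seen, had 2.57, 2.13 and 2.28 CPM in MUTE and 0.873, 0.871 and 0.814 CPM in MUTEv5#5. Its groups were apart and it fell by 1.45 (adjusted p = 0.027), a call lost without any 1 of these 6 libraries. The potassium channel genes KAT1 (-0.92, adjusted p = 0.338), KAT2 (-0.67, adjusted p = 0.0525) and GORK (-0.56, adjusted p = 0.168) did not pass, nor did the proton pump gene AHA1 (-0.08).

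Among kinases, MPK12, a MAP kinase of guard cell signalling, had 10.4, 8.94 and 8.00 CPM in MUTE and 5.31, 4.65 and 4.09 CPM in MUTEv5#5. No MUTEv5#5 library reached the lowest MUTE library. MPK12 fell (log2 fold change -0.96, adjusted p = 0.00501). BLUS1, a kinase of the blue light response of stomata, fell by 1.38 (adjusted p = 0.0143), a call lost without MUTE replicate 2 or MUTEv5#5 replicate 3. BLUS1 overlaps a second gene on its strand. OST1, the abscisic acid kinase, was at -0.37 (adjusted p = 0.174).

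AT1G23200, a gene of cell wall pectin, went from 1.59, 3.01 and 2.54 CPM to 0.582, 0.657 and 0.457. It fell by 2.07 (edgeR, adjusted p = 0.00537, and adjusted p = 0.0505 with the compared groups alone and the replicate block). The groups did not overlap. ABCG31, an ABC transporter gene chosen after its values were seen, stood at 6.29, 6.49 and 5.50 CPM in MUTE and at 1.87, 2.03 and 1.3 CPM in MUTEv5#5. It was lower in all 3 libraries and fell by 1.81 (SE 0.166, adjusted p = 0.000548). SCAP1, a Dof factor of guard cell maturation, fell by 1.05 (adjusted p = 0.0253), a call lost without any of the 3 MUTE libraries or MUTEv5#5 replicate 2 or 3, and MYB60 was at -0.39 (adjusted p = 0.287).

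**Figure D2:**
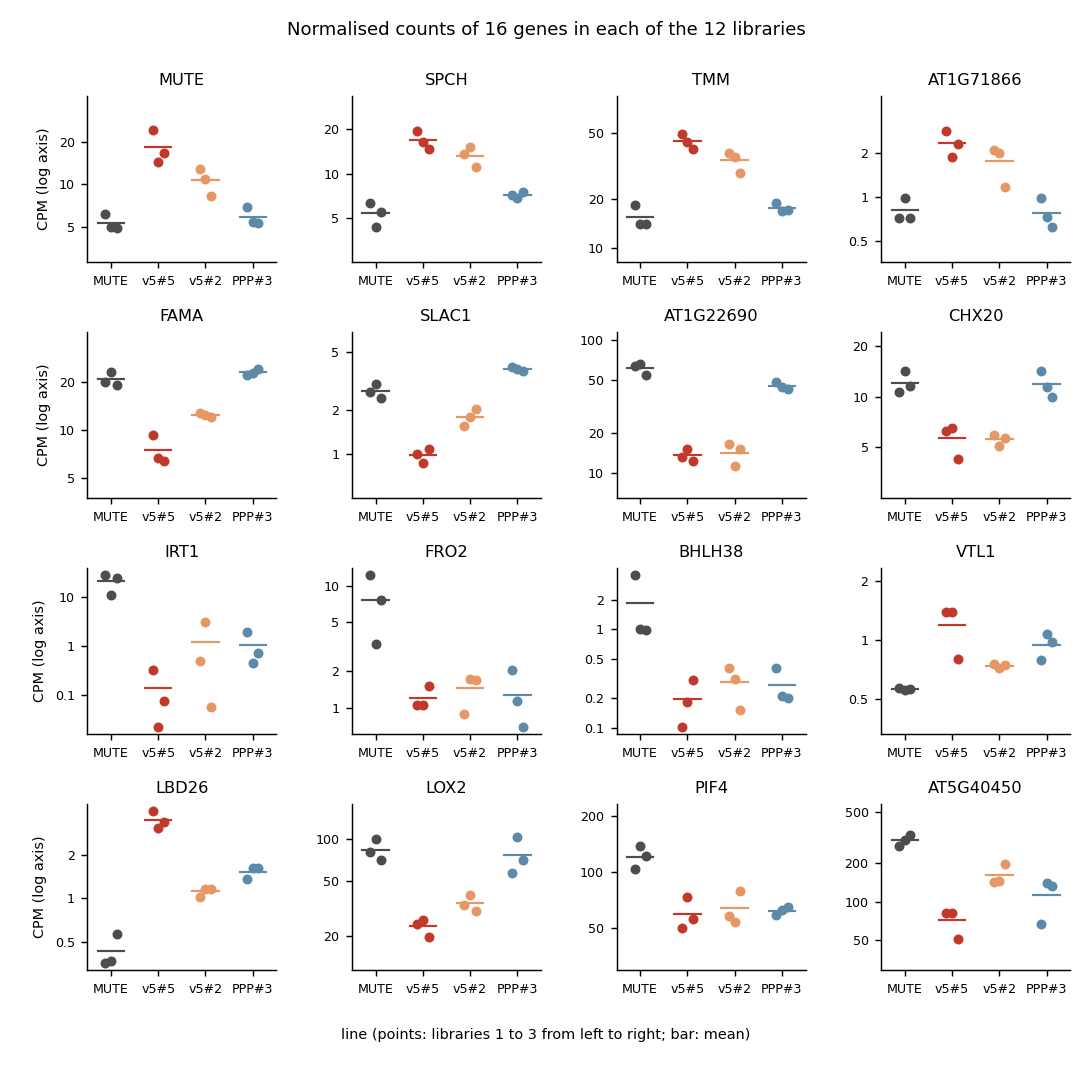
CPM (log axis) of 16 genes in each of the 12 libraries, with a bar at each group mean. The MUTEv5#5 points lie above the MUTE points for MUTE, SPCH, TMM, AT1G71866, LBD26 and VTL1 and below them for the other genes, and the MUTE libraries of FRO2 and BHLH38 are spread widely.

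Genes of iron acquisition were lower in MUTEv5#5. In plants short of iron, the bHLH factors BHLH38, BHLH39, BHLH100 and BHLH101 with FIT activate the reductase gene FRO2 and the transporter gene IRT1 in the root epidermis, and IMA peptides signal the shortage. Of 18 iron regulation genes 4 fell, and of 14 root uptake genes 2 fell, with medians of -0.43 and -0.35. No iron regulation gene was called without any 1 MUTE library or without MUTEv5#5 replicate 1, at an unadjusted p under 0.05 there were 10, and DESeq2 called 8. IRT1 had 27.2, 10.9 and 23.9 CPM in MUTE and 0.323, 0.0229 and 0.0761 CPM in MUTEv5#5, with every MUTE library far above. It fell (log2 fold change -7.14, SE 1.33, adjusted p = 0.0371). FRO2 had 12.1, 3.34 and 7.56 CPM against 1.06, 1.05 and 1.51 CPM. Its MUTE libraries differed among themselves more than 3-fold, yet all lay above those of MUTEv5#5 (-2.67, adjusted p = 0.0371). In MUTEv5#2 over MUTE the medians were -0.40 for iron regulation and -0.09 for root uptake, with 3 and 1 genes called lower. Of all genes 5.04% were called there, in either direction. Between the R10W lines the medians of the 2 lists were -0.05 and -0.28, and 0 of their genes were called.

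BHLH38 had 3.54, 1.02 and 0.997 CPM in MUTE and 0.103, 0.183 and 0.304 CPM in MUTEv5#5, and fell by 3.24 (adjusted p = 0.0408). MUTE replicate 1 was the highest by far, and the other MUTE libraries still exceeded all of MUTEv5#5. AT1G47400 and AT2G30766, loci of the IMA peptide list, fell by 1.84 (adjusted p = 0.0232) and 3.06 (adjusted p = 0.0387). Of the other regulators, FIT was at -0.25, PYE at -0.18 and ILR3 at 0.07. On the iron regulation list 16 of 18 genes had a negative fold change. BTS, an E3 ligase that restrains the response, was at -0.58 (adjusted p = 0.0732).

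These iron calls are fragile. With the replicate number as a block the adjusted p was 0.0557 for FRO2, 0.0537 for BHLH38 and 0.0577 for AT2G30766, and 0.0433 for IRT1. Each of IRT1, FRO2, BHLH38 and AT2G30766 lost its call without any of 8 to 10 of the 12 libraries, MUTE replicates 1 and 3 and all of MUTEv5#5 among them, and AT1G47400 without any MUTE library or MUTEv5#5 replicate 1. IRT1 ran from -8.68 to -6.66 over these fits and BHLH38 from -3.70 to -2.36. Of 23 genes of iron transport and storage, 1 rose and 0 fell, with a median of -0.04. The rise was that of VTL1, a homologue of vacuolar iron transporters, from 0.565, 0.553 and 0.558 CPM to 1.4, 1.39 and 0.799 CPM. Its groups did not overlap, but the adjusted p of 0.0495 became 0.0706 with the replicate block, and the call was lost without any of 10 of the 12 libraries. The ferritin gene FER1 was at 143, 145 and 152 CPM in MUTE and at 267, 165 and 179 CPM in MUTEv5#5 (0.48, adjusted p = 0.305). The MUTEv5#5 libraries were all higher, but by amounts that differed widely.

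Among genes with the highest CPM, those of translation elongation rose slightly. AT5G60390, which codes for the elongation factor EF1A, stood at 930, 944 and 970 CPM in MUTE and at 1325, 1249 and 1443 CPM in MUTEv5#5. The groups were apart, at 0.50 (log2 fold change; SE 0.091, adjusted p = 0.0341; adjusted p = 0.0515 with the replicate block). AT1G07920, AT1G07930 and AT1G07940, which are 93.9% to 99.6% identical to it or to one another and may share reads, rose by 0.51, 0.50 and 0.48. Each of the 4 calls was lost without any of 9 to 11 of the 12 libraries, all MUTE libraries and MUTEv5#5 replicates 1 and 3 among them, while the fold changes kept within 0.44 to 0.59. The annotated product of 98 tested genes holds the words ribosomal protein in lower case. Products written with a capital letter were not counted, so the family may not be complete here. Of the 98, 1 rose (AT5G15200, 0.45, a call lost without any of 10 of the 12 libraries). A positive fold change was seen for 74, and the median was 0.26. Of 263 pentatricopeptide repeat genes, which mostly process organelle RNA, 5 rose and 0 fell, with a median of 0.15 and 189 positive. Over all coding genes 0.284% rose, the median was -0.01 and 51.9% were negative. PPR336, of that family, went from 20.6 ± 0.432 to 29.1 ± 2.07 CPM (SD, n = 3), all 3 libraries higher (0.50, adjusted p = 0.0177), a call lost on leaving out MUTE replicate 2, MUTE replicate 3 or MUTEv5#5 replicate 3. Both families were chosen after values were seen, and their medians are descriptions.

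The falls held many genes for long proteins rich in glutamate and lysine, residues of charged coiled coils and chromatin proteins. This was seen in the called genes and then counted, so the counts describe these libraries and carry no test. Of 158 coding genes that fell, 24.7% code for a protein with at least 20% glutamate plus lysine, against 6.55% of all 21114 tested coding genes and 6.67% of 60 that rose. Stretches of 30 codons from 3 such genes, and 1 from the rising gene AT5G60390, are printed to show what sets them apart, with the codons of glutamate and lysine in capitals (TAIR10.1, RefSeq; 5′ to 3′ on the coding strand).

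AT2G22795: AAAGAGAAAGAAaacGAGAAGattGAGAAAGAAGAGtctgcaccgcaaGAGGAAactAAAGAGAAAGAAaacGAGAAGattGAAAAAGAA
AT4G26630: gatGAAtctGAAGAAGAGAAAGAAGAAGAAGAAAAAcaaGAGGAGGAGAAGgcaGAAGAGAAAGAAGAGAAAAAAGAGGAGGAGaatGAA
AT5G40450: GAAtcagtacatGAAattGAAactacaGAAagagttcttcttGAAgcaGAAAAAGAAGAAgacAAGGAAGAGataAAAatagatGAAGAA
AT5G60390: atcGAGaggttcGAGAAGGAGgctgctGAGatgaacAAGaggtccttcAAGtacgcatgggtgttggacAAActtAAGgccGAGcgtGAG

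The stretch of AT2G22795 lies at chr2:9697764-9697853 (minus strand) and holds 21 such codons of 30, and that of AT4G26630 at chr4:13432018-13432107 (minus) holds 25. The stretch of AT5G40450 at chr5:16192801-16192890 (minus) holds 15 and that of AT5G60390 at chr5:24289340-24289429 (plus) holds 11. Each is the stretch with the most codons of this kind among those of its coding sequence that do not cross an intron.

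AT2G22795, annotated only as an uncharacterized protein, is 40.7% glutamate plus lysine. It stood at 75.8, 87.3 and 95.8 CPM in MUTE and at 25.9, 26.9 and 18.9 CPM in MUTEv5#5, with no overlap. It fell (log2 fold change -1.85, SE 0.169, adjusted p = 0.000548). AT5G40450, annotated as an A-kinase anchor-like protein, went from 273, 302 and 329 CPM to 81.6, 82.3 and 51.5 CPM. All 3 libraries were far lower (-2.07, SE 0.273, adjusted p = 0.00626).

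Chromatin and nuclear lamina genes were among them; they were chosen after their values were seen. AT4G26630 and AT5G55660 code for chromatin proteins with a DEK domain. AT4G26630 had 127, 126 and 124 CPM in MUTE and 52.6, 52.1 and 40.8 CPM in MUTEv5#5, and AT5G55660 had 62.3, 70.6 and 66.8 CPM against 30.05, 29.5 and 19.7 CPM. Both were lower in every MUTEv5#5 library, and fell by 1.37 (adjusted p = 0.000876) and 1.34 (adjusted p = 0.00901). Over the 4 genes tested with this annotation, the median was -1.03. AT5G40340, of the Tudor and PWWP domain proteins, fell by 1.17 (adjusted p = 0.0211); of 15 genes tested with that annotation 3 fell and 5 were positive, with a median of -0.14. LINC3 and LINC4, coiled-coil proteins that shape the plant nucleus, fell by 0.84 (adjusted p = 0.0325) and 0.64 (adjusted p = 0.0307). CIP1, a coiled-coil protein that binds the light regulator COP1, had 131, 144 and 163 CPM in MUTE and 68.6, 75.9 and 62.9 CPM in MUTEv5#5. It was apart between the groups and fell by 1.08 (adjusted p = 0.0143).

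The calls of AT2G22795, AT5G40450, AT4G26630 and AT5G55660 held without any single library. That of CIP1 was lost on leaving out any 1 of MUTE replicates 2 and 3 and MUTEv5#5 replicates 1 and 3, that of AT5G40340 on leaving out MUTE replicate 1, MUTE replicate 3 or MUTEv5#5 replicate 3, and those of LINC3 and LINC4 without any MUTE library, MUTEv5#5 replicate 2 or 3 or MUTEv5#2 replicate 1 or 2. LINC4 overlaps another gene on its strand.

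Composition and length went together. Of 329 tested genes for proteins with at least 25% glutamate plus lysine, 22 fell (6.69%) and 1 rose (AT2G41650, a call lost without any of 8 of the 12 libraries), against 0.748% and 0.284% over all coding genes. Of these, 108 have a coding sequence of at least 1000 bases, and 21 of them fell (19.4%) and 0 rose. Their median was -0.42, and 92 had a negative fold change. The 221 shorter ones had 1 rise and 1 fall, with a median of -0.06. The 12320 genes of that length with less glutamate and lysine had 102 falls (0.828%) and a median of -0.04.

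In every library the median deviation of the 108 genes from their mean over the 12 libraries was taken as log2 of CPM plus 0.5. It was 0.19, 0.15 and 0.16 in MUTE and -0.14, -0.21 and -0.35 in MUTEv5#5. In MUTEv5#2 it was 0.13, 0.07 and 0.07 and in MUTEPPP#3 -0.09, 0.05 and -0.03, so that the MUTEv5#5 libraries were the lowest 3 of the 12. Over the same MUTE libraries the median fold change of the 108 genes was -0.22 in MUTEPPP#3 and -0.11 in MUTEv5#2. A lower median was thus not particular to MUTEv5#5, where it was lowest. In MUTEv5#5 it ran from -0.49 to -0.33 over all alternatives. The number of these genes called, counted in either direction, ran from 5 to 47. It was 11, 8 and 6 without MUTE replicates 1, 2 and 3, 8 without MUTEv5#5 replicate 3, and 13 without either MUTEv5#2 replicate 1 or replicate 2. Fold changes were lower for longer genes over the whole table. The median was 0.04 under 1000 coding bases, -0.02 from 1000 to 2000, -0.07 from 2000 to 3000 and -0.13 at 3000 or more, where 77.7% of 1110 genes had a negative fold change, against 51.9% of all coding genes, and 17 fell (1.53%). In this longest class the median over the same MUTE libraries was -0.14 in MUTEPPP#3 and -0.02 in MUTEv5#2. The trend with length was thus not particular to MUTEv5#5. The library with the lowest median deviation in the class was MUTEPPP#3 replicate 1 (-0.196). The part of length and of RNA integrity, for which there is no value, in these falls was not tested.

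**Figure D3:**
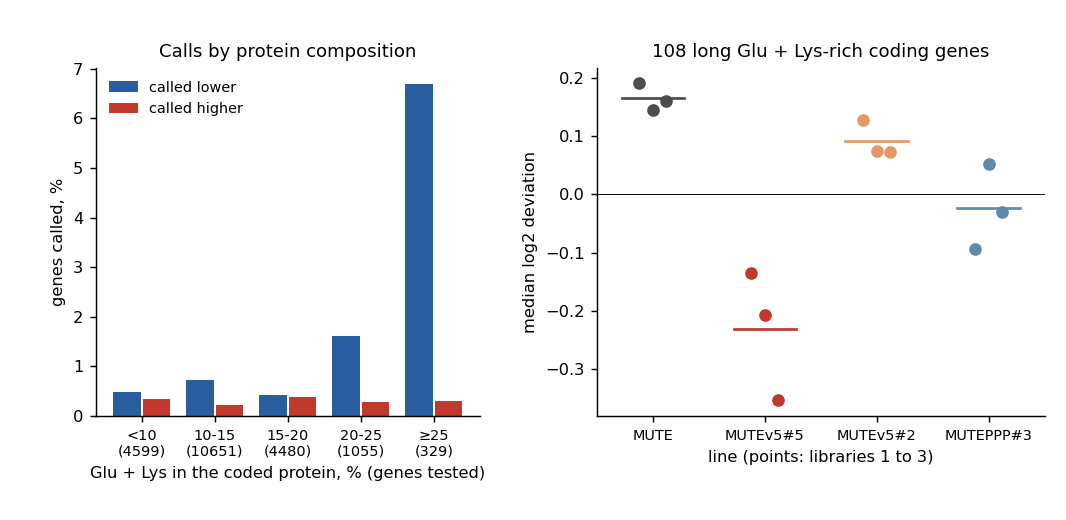
Left, percent of tested coding genes called lower or higher in MUTEv5#5 against MUTE by the share of glutamate plus lysine in the coded protein, with the number of genes below; right, median log2 deviation of the 108 genes with at least 25% and at least 1000 coding bases in each library, bars at group means. The share called lower is 6.69% in the highest class and at most 1.61% in the other classes.

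Most tested genes with the word chloroplast in their annotation had a negative fold change. Of 57 such genes, with the word in lower case, 3 fell and 0 rose, with a median of -0.19 and 47 below 0. Genes of plastid proteins annotated in other words were not counted. Over all coding genes 0.748% fell and 51.9% were below 0. Of 29 photosynthesis genes 0 passed the edgeR test and 2 that of DESeq2 (median -0.21, 28 below 0, 6 at an unadjusted p under 0.05). The following were chosen after their values were seen, other than TL29 and CSP41A. DXR, an enzyme of plastid isoprenoid synthesis, stood at 157, 175 and 165 CPM in MUTE and at 106, 120 and 116 CPM in MUTEv5#5. All MUTEv5#5 libraries were lower, and DXR fell by 0.54 (SE 0.079, adjusted p = 0.0131). CFM2, which splices plastid introns, fell by 0.71 (adjusted p = 0.02), and CLPR1, a subunit of the plastid Clp protease, by 0.50 (adjusted p = 0.0253). TL29, a thylakoid lumen protein, fell by 0.68 (adjusted p = 0.0389), and CSP41A, a plastid RNA-binding protein, by 0.52 (adjusted p = 0.0341; adjusted p = 0.051 with the replicate block). The DXR call was lost on leaving out MUTE replicate 2, MUTE replicate 3 or MUTEv5#5 replicate 3, that of CFM2 without these or MUTEv5#5 replicate 1, that of CLPR1 without any MUTE library or MUTEv5#5 replicate 2 or 3, and those of TL29 and CSP41A without any of 9 and 8 of the 12 libraries, MUTE replicates 2 and 3 and MUTEv5#5 replicates 1 and 3 among them.

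Of 23 jasmonate genes 1 fell, with a median of -0.57. LOX2, a plastid lipoxygenase that starts jasmonate synthesis, had 80.6, 99.5 and 70.0 CPM in MUTE and 24.8, 26.2 and 19.96 CPM in MUTEv5#5. The groups were far apart (-1.82, SE 0.215, adjusted p = 0.00301), and the call held without any single library. The repressor genes JAZ1 (-0.24) and JAZ10 (-0.19) overlapped between the groups. VSP2, a vegetative storage protein gene induced by jasmonate, was at -1.16 (adjusted p = 0.174; -1.22 and adjusted p = 0.0483 with the replicate block).

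PIF4, a phytochrome-interacting factor that promotes elongation, fell on the light list (1 of 11 called, median -0.04). It had 104, 137 and 121 CPM in MUTE and 49.9, 72.8 and 55.4 CPM in MUTEv5#5. All MUTEv5#5 libraries were lower (-1.02, adjusted p = 0.027), and the call was lost on leaving out any 1 of MUTE replicates 2 and 3 and MUTEv5#5 replicates 1 and 3. On the abscisic acid list (19 genes, median -0.09), the dehydrin gene AT5G66400 fell by 1.78 (adjusted p = 0.0412), from 2.33, 1.63 and 1.73 CPM to 0.388, 0.787 and 0.479 CPM. It did not overlap, and the call was lost without any of 9 of the 12 libraries, the MUTE libraries and MUTEv5#5 replicates 1 and 3 among them.

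Over 29 lists with 375 tested genes edgeR called none, DESeq2 called 14, and 53 had an unadjusted p under 0.05. Of these lists, hypoxia had the highest median, 0.71, with 12 of 14 genes positive, 6 at an unadjusted p under 0.05 and 2 called by DESeq2. The phytoglobin gene HB1 stood at 5.04, 4.57 and 9.43 CPM in MUTE and at 27.5, 8.25 and 18.9 CPM in MUTEv5#5. The groups overlapped, and it did not pass (1.52, adjusted p = 0.142). Sulfur deficiency (12 genes), salicylic acid (16) and starch (15) had medians of -0.50, -0.37 and -0.52 with no positive member. At an unadjusted p under 0.05 they had 1, 5 and 2 genes, and DESeq2 called none. Medians of DNA replication (0.05), endocycle (-0.00) and epidermal HD-ZIP IV genes (0.02) were near the -0.01 over all genes. The median was 0.10 for mitosis (14 of 18 genes positive) and 0.14 for root tissue (8 of 12). It was 0.15 for root hair (8 of 9 positive) and -0.15 for vascular genes (2 of 11 positive).

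Starch breakdown genes varied widely among the replicates of a line. The phosphorylase gene PHS2 stood at 14.1, 137 and 93.6 CPM in MUTE and at 10.99, 119 and 35.2 CPM in MUTEv5#5, and SEX1, a starch kinase, at 54.8, 230 and 151 CPM and at 42.8, 207 and 54.0 CPM. Replicate 1 was low in both lines for both genes. ETC3, a small MYB of hair patterning, was at 1.05 (adjusted p = 0.121; 1.11 and adjusted p = 0.0408 with the replicate block).

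**Figure D4:**
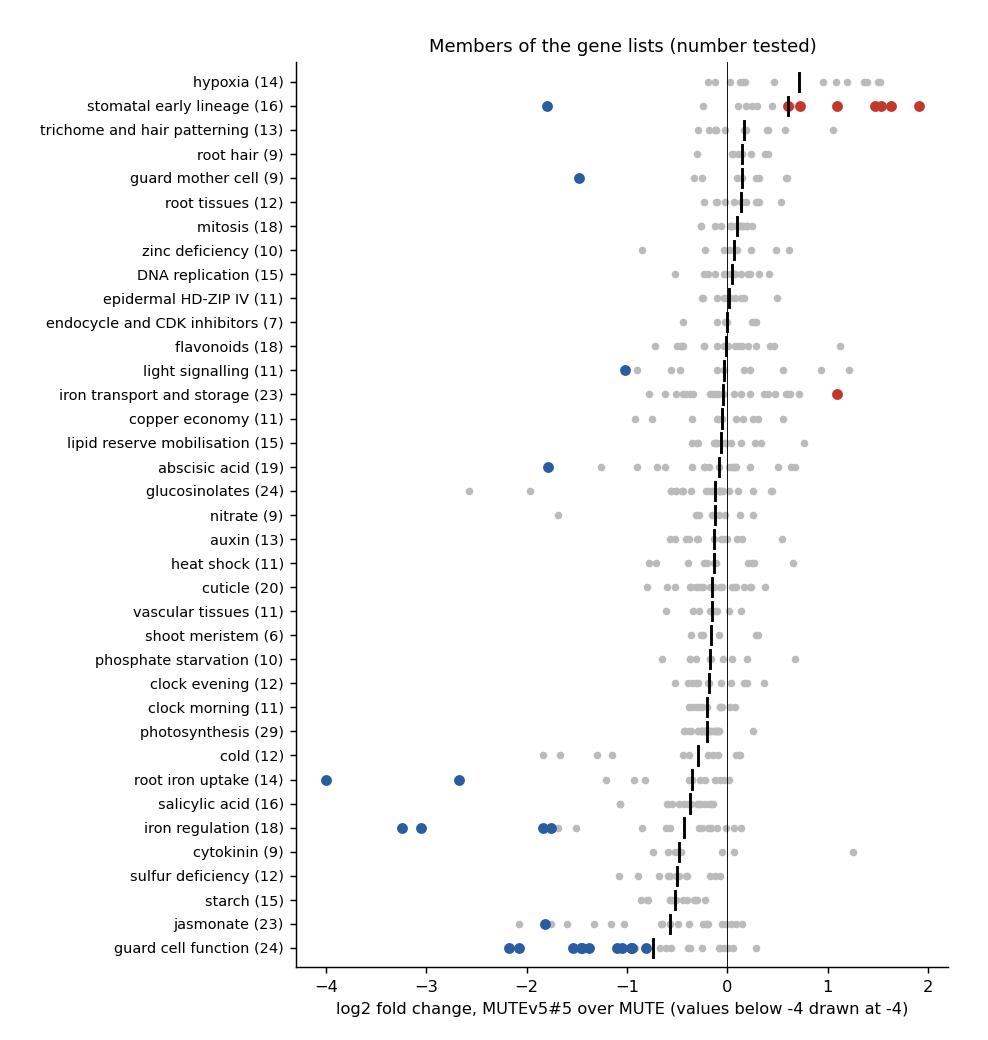
Log2 fold change of MUTEv5#5 over MUTE for every tested member of the lists with at least 5 tested members, called genes in colour and list medians as black bars. Called genes gather in the early lineage (7 higher), guard cell (11 lower) and iron lists, and the bars of most other lists lie near 0.

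A few of the largest changes set the MUTE line apart from all 3 variant lines. These comparisons share the MUTE libraries, so the values are given side by side only. RE2, a retrotransposon copy, had 4.30, 3.62 and 4.16 CPM in MUTE and 0.233, 0.153 and 0.175 CPM in MUTEv5#5 (-4.42, adjusted p = 0.000365). Its fold change over MUTE was -4.85 in MUTEv5#2 and -3.85 in MUTEPPP#3. AT1G27565, an uncharacterized protein gene, was at -3.71, -4.11 and -4.17 in the same order, and the non-coding RNA AT4G04223 at 2.65, 2.59 and 3.67. APD3 was at -2.36, -3.52 and -3.16, with 97.7% identity to a second gene and a call lost without MUTEv5#5 replicate 3. Since MUTE is 1 line, a property of that line and an effect of the variant proteins cannot be told apart for these genes.

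Against MUTEv5#2, which makes the same R10W protein, 15 genes differed (0.0663% of those tested), of which 4 were higher (0.0177%) and 11 lower (0.0486%) in MUTEv5#5. At an unadjusted p under 0.05 there were 2455 genes (10.8%). Of the 235 genes called against MUTE, 4 were also called here. The count was 35 without MUTE replicate 1, 3 and 5 without MUTEv5#2 replicates 1 and 2, and 5 without either MUTEv5#5 replicate 2 or replicate 3.

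LBD26 was higher in MUTEv5#5 than in MUTEv5#2, whose libraries had 1.03, 1.17 and 1.17 CPM, against at least 3.06 CPM in each of MUTEv5#5. Between these lines LBD26 differed by 1.62 (log2; SE 0.191, adjusted p = 0.0109), and that of MUTEv5#2 over MUTE was 1.37. AT1G43590 differed by 1.94 (adjusted p = 0.0109). AT2G22795, the glutamate and lysine-rich gene above, had 75.5, 62.4 and 69.8 CPM in MUTEv5#2, near the 75.8 to 95.8 CPM of MUTE. Between the R10W lines its log2 fold change was -1.53 (SE 0.167, adjusted p = 0.00895). The call of LBD26 was lost without MUTEv5#2 replicate 1 or 2 or MUTEv5#5 replicate 3, that of AT1G43590 also without MUTEv5#5 replicate 2, and that of AT2G22795 without MUTEv5#2 replicate 1.

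The stomatal genes were not called between the R10W lines. Of the 24 guard cell genes, 12 were also called lower in MUTEv5#2 against MUTE, with a median of -0.64. Of all genes 5.04% were called there, in either direction. Between the R10W lines the median of the 24 was -0.04. FAMA had 12.7, 12.3 and 12.01 CPM in MUTEv5#2, above each MUTEv5#5 library, and a fold change of -0.74 (95% interval -1.03 to -0.44, adjusted p = 0.118). SDD1 was at -0.74 (-1.06 to -0.42, adjusted p = 0.122) and POLAR at 0.51 (0.25 to 0.77, adjusted p = 0.205). MUTE was at 0.80 (0.32 to 1.28, adjusted p = 0.259), and AT1G22690 at -0.07 (-0.38 to 0.23, adjusted p = 0.889). These intervals are per gene and not adjusted for the 22636 genes tested.

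**Figure D5:**
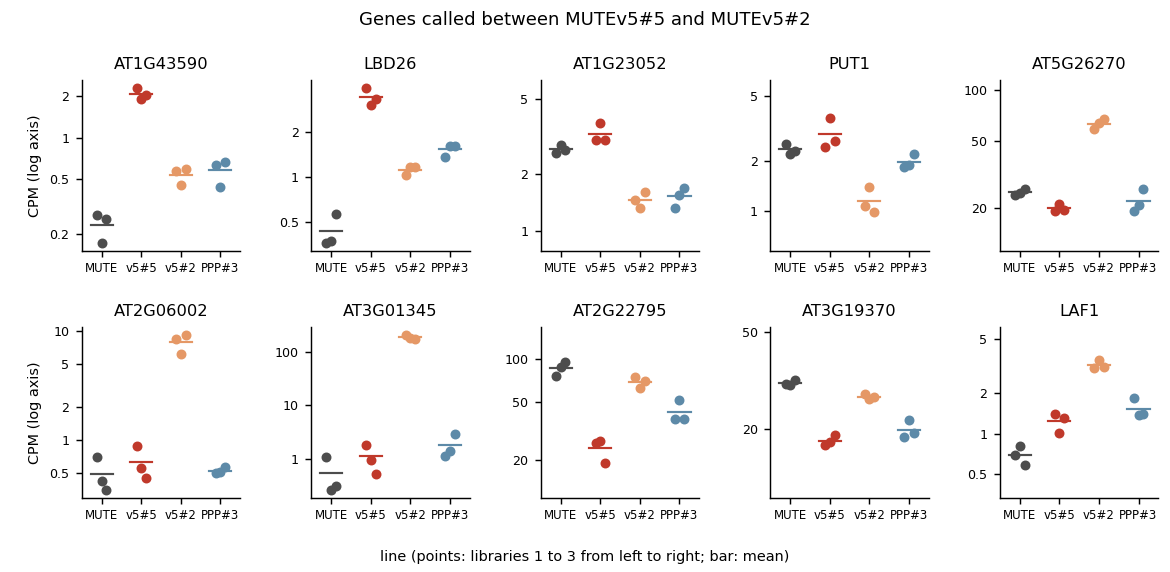
CPM (log axis) of the 10 genes named by rule among those called between MUTEv5#5 and MUTEv5#2, in each of the 12 libraries, with bars at group means. LBD26 and AT1G43590 are highest in MUTEv5#5, AT2G22795 and AT3G19370 have their lowest mean there, and AT5G26270, AT2G06002, AT3G01345 and LAF1 are highest in MUTEv5#2.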

How the data were processed

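Per the labels' protocols, RNA of whole seedlings was made into stranded mRNA libraries. The authors deposited counts, whole numbers per gene and library. The submitters' processing notes name the TAIR10 build and StringTie 2.1.3b, DESeq2, HISAT2 2.1.0, Trimmomatic 0.38, Bowtie2 2.3.4.1 and FastQC, in no stated order. The sources used here do not give the counter or its strand setting. In every library the lowest value was 1, so 1 may have been added to each count, which weighs on the lowest levels. Of 23098 entries, 27 named no gene (at most 5.96e-04% of a library) and were left out. Gene positions and product names are from RefSeq (TAIR10.1).

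Genes were tested with the quasi-likelihood F-test of edgeR 4.0.16 (R 4.3.3; TMM, filterByExpr) in 1 fit of 12 libraries and 4 group means, with p-values adjusted by Benjamini-Hochberg over 22636 genes and a threshold of 0.05. SE belongs to the log2 fold change, SD to CPM. Alternatives were DESeq2 1.42.0, other scalings and filters, 1 subtracted from each value, the compared groups alone, a replicate block, the organelle share as a covariate and leaving out each library. Chosen after seeing the data were the compared groups alone with the block and the counts of the composition classes. At a depth of over 117868477 counts the spread between replicates (common BCV 0.215) exceeds counting error for most genes; IRT1, BHLH38 and other genes far below 1 CPM rest on few counts (IRT1 on 50, 3 and 10 in the MUTEv5#5 libraries).

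Named genes are MUTE; the 15 called rises and 15 called falls with the largest fold change, at least 1 CPM and no overlap; the 6 of each with the highest CPM; called list members and the 2 of smallest p per list; up to 6 each way against MUTEv5#2; and list members and markers that define a role. Only part of the genes picked by this rule are described. Left out are, among others, QQS (log2 fold change 2.74), FUM2 (-2.66) and AT1G76780 (-2.54). Their calls were lost without any of 8, 2 and 3 of the 12 libraries. Any further gene is marked as picked with its values in view. The members and the 38 lists (532 of 567 entries in the table) were chosen with earlier results of these data known. Same-numbered MUTE and MUTEv5#5 libraries deviated together (r over genes 0.574, 0.414 and 0.323), so the numbers were taken to pair them, and values with the block added to the fit of 12 libraries are given where they change a call. The labels call the libraries biological replicates.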

Additional observations from a re-analysis of the deposited data

Results flagged for a closer look

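The 10 genes named here differed between MUTEv5#5 and MUTEv5#2, lines with the same R10W protein, by a direct test of that difference (edgeR, adjusted over 22636 genes). They were higher in MUTEv5#5 for AT1G43590 (log2 fold change 1.94), LBD26 (1.62), PUT1 (1.34), a polyamine uptake transporter gene, and the non-coding RNA AT1G23052 (1.16). They were lower for AT2G22795 (-1.53), the filament-like protein gene AT3G19370 (-0.60), the MYB factor gene LAF1 (-1.39), AT5G26270 (-1.66), the non-coding RNA AT2G06002 (-3.64) and AT3G01345 (-7.37).

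AT3G01345 stood at 205, 184 and 170.5 CPM in MUTEv5#2 and at 1.86, 0.97 and 0.533 CPM in MUTEv5#5, against 1.08, 0.266 and 0.311 CPM in MUTE, so MUTEv5#2 stood apart from both other lines. The same holds for AT2G06002 (8.41, 6.10 and 9.17 CPM in MUTEv5#2, at most 0.886 CPM in MUTEv5#5 and MUTE) and AT5G26270 (58.6 to 67.3 CPM against 19.2 to 26.0 CPM). The calls of these 3 genes held without any single library. Those of AT1G23052 (1.05 to 1.24 over the alternatives), PUT1 (1.14 to 1.5), LAF1 (-1.48 to -1.25) and AT3G19370 (-0.65 to -0.57) were lost without MUTEv5#2 replicate 1 or 2 or MUTEv5#5 replicate 2 or 3, and, AT1G23052 apart, without further libraries.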

How the results depend on the processing

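The count of 235 genes against MUTE was 1176 with DESeq2, 129 with library totals as the only scaling, 42 with the compared groups alone, 125 with these and the replicate block and 88 with the organelle and ribosomal share as a covariate. It was 59 to 274 with 1 library left out. Library totals moved the median of all genes to 0.08 and gave 63 rises and 66 falls. The replicate block gave 217 calls, 170 of them shared. Against MUTEv5#2 the 15 genes became 300 with DESeq2, 8 with the covariate and 0 with the compared groups and the block, and 3 to 35 without single libraries. MUTE kept its direction throughout (1.55 to 1.95 without single libraries) and missed the threshold with the compared groups alone (1.81). Called list members went from 30 to 59 with DESeq2 and 12 with the compared groups alone (16 to 30 without single libraries). Called genes named by rule went from 63 to 23 with the compared groups alone, 34 with these and the block and 41 with the covariate (32 to 60 without single libraries). No called gene changed sign, and 36 of 858 medians of the lists and the glutamate and lysine class moved by more than the spread between replicates. The block ended calls of 10 of the 63 genes. The compared groups alone with the block ended those of AT1G71866, ERL1, SLAC1, AT1G23200, CHX20, SCAP1, AT1G47400, AT2G30766, BHLH38, FRO2, VTL1, the 4 elongation factor genes, AT5G15200, PPR336, AT5G40340, LINC3, LINC4, AT2G41650, DXR, CLPR1, CSP41A and AT5G66400, and the compared groups without it those of SCRM, ALMT12, MPK12 and AT5G55660 among others. Why counts moved was not tested. Same-numbered libraries of MUTEv5#5 and MUTEv5#2 deviated together for numbers 1 and 3 but not for number 2 (r 0.3, -0.166 and 0.242). Differently numbered ones reached an r of 0.251. The block gave 15 calls between these lines. The single MUTE line and the 3 libraries per line limit every result.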
